A study of Mus musculus with 12 samples.

Results

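The 8 genes followed here encode ubiquitin ligases tied to muscle wasting, and they were described across control, diabetic and angiotensin IV treated mouse hearts. They were chosen by name: Fbxo32, Trim63, Fbxo30, Trim54, Trim55, Nedd4, Stub1 and Mdm2. The platform annotation gave 7 of the 8 a probe set, 1 each, out of 19505 named genes, and all 7 were among the 13653 genes tested. Stub1, the gene for the chaperone-linked ligase CHIP, is not analysed here.

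The samples were myocardium from 12 mice, 1 Affymetrix array each, in 3 groups of 4. Control mice (NC) were given 5 daily intraperitoneal injections of vehicle. Diabetic mice (DM) were given streptozotocin, which is toxic to pancreatic beta cells, on 5 consecutive days, and were kept if their fasting blood glucose reached 16.7 mM 2 weeks later. The third group (AngIV) was made diabetic in the same way and was then infused with angiotensin IV, a fragment of angiotensin II, at a high dose of 2.88 mg/kg/day between weeks 8 and 24, so that AngIV and DM share streptozotocin. A time of 6 months was labelled for all 3 groups. The sources used here give neither strain nor sex. A disease state tag contradicted the titles, source names and series design for NC and AngIV and was set aside.

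Ubiquitin ligases choose which proteins are tagged with ubiquitin for breakdown by the proteasome. Fbxo32 (atrogin-1) and Trim63 (MuRF1) were identified as genes that rise in wasting skeletal muscle, and both are known targets of FoxO transcription factors, which insulin signalling through AKT keeps out of the nucleus. The 3 MuRF proteins, encoded by Trim63, Trim55 (MuRF2) and Trim54 (MuRF3), bind the sarcomere and can pair with one another, and hearts use them to control the size and turnover of the contractile apparatus.

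Fbxo32 was the one ligase gene that passed the test over all genes. It rose 1.78-fold from NC to AngIV (95% interval 1.49 to 2.12), and its DM mean lay between. Trim63 and Trim54 were nearest to the threshold in the same comparison, with signals 1.56-fold and 1.38-fold those of NC. Trim55, Fbxo30, Nedd4 and Mdm2 had ratios of 1.03 to 1.12, and none of the 4 passed.

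The tissue matched its label: all 12 ventricular cardiomyocyte markers lay above the negative controls in every group, and 0 of 10 tested skeletal muscle markers did in any group. Other cell types were less even. The summed signal of 10 atrial markers, on the linear scale, ran from 772 to 4530 in NC, 504 to 3820 in DM and 600 to 1260 in AngIV. That of 9 endothelial markers ran from 3030 to 3260, 3630 to 4290 and 3750 to 4020, a sum led by Fabp4, and that of 11 macrophage markers from 841 to 919, 816 to 1830 and 941 to 1460. That of 9 fibroblast markers ran from 2840 to 3770, 2390 to 3710 and 2630 to 3240. In AngIV against NC the fibroblast markers had a median log2 change of -0.35, with 1 of 9 positive and 1 called lower, and the endothelial markers one of 0.25, with 7 of 9 positive and 1 called higher. The endothelial sums of NC lay below those of all diabetic arrays, as the Fbxo32 signals did. The mean log2 signals of the same markers overlapped, at 7.34 to 7.59 in NC, 7.31 to 7.90 in DM and 7.58 to 7.92 in AngIV. The part of these cell types in the results was not tested. In bulk tissue, fewer cells of a type and less RNA per cell cannot be told apart.

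Sequences upstream of Trim63 and Trim54 are shown because the signals of these MuRF genes varied together from array to array. RefSeq windows on GRCm38.p6, covering 250 bases before and 50 after each annotated start, were held for 5 of the 7 ligase genes. None was held for Fbxo32 or Trim55, so their promoters were not searched. The Trim63 window is chr4:134314870-134315169 and the Trim54 window chr5:31116362-31116661, both on the plus strand. Capitals mark, on either strand, the FoxO element GTAAACA, the short glucocorticoid receptor element AGAACA, its full palindromic site, and the muscle MCAT element CATTCC.
Trim63: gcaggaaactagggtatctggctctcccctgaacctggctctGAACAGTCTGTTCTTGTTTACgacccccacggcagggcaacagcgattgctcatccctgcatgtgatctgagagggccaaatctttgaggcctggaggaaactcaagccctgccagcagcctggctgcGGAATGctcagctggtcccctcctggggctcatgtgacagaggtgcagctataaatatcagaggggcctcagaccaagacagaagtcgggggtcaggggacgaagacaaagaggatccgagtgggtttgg
Trim54: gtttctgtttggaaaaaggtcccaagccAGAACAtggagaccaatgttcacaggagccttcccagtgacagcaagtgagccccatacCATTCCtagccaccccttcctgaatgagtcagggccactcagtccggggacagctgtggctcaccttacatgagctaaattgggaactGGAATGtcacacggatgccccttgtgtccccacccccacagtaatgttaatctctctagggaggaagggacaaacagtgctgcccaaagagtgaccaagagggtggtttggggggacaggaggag

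Counted from 1 at the 5′ end, the Trim63 window held the full glucocorticoid site at positions 43 to 55, a short element overlapping it at 51 to 56 and a FoxO element directly after it at 57 to 63. Over all 32851 promoter windows of this length, 3.65% held the FoxO element, 0.475% the full glucocorticoid site, and 5 windows, 0.0152%, held both. The Trim63 window is 1 of these 5, and no other pair of motifs was counted, so the share is a description. In Trim54 there was a short glucocorticoid element at positions 29 to 34, a form found in 19% of all windows, and MCAT elements at 88 to 93 and 176 to 181, where 14.7% of windows hold at least 1. The Trim63 window had 1 MCAT element, at positions 171 to 176. Of the other ligase genes with a window, Mdm2 held a FoxO element at positions 98 to 104 and Nedd4 a short glucocorticoid element at 35 to 40. These are matches of letters, and binding was not measured.

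Fbxo32 encodes the F-box protein that brings substrates to an SCF ligase complex. Its log2 signal was 7.59, 7.46, 7.57 and 7.61 on NC replicates 1 to 4, 8.36, 8.11, 7.91 and 7.86 on the DM arrays and 8.25, 8.35, 8.34 and 8.60 on the AngIV arrays. Every diabetic array, treated or not, lay above every NC array, while the highest DM array reached into the AngIV range. The spread was narrow in NC and wide in DM, at 7.56 ± 0.07, 8.06 ± 0.23 and 8.39 ± 0.15 (mean ± SD, n = 4). In AngIV against NC the log2 change was 0.83 ± 0.12 (SE; limma adjusted p = 0.00573), rank 11 of 13653 genes by p. It was the 1 ligase gene called higher in that comparison, where 1.52% of all genes were called higher. With both diabetic groups pooled against NC, the change was 0.67 ± 0.10 (limma adjusted p = 0.00932), again the 1 ligase called, against 0.908% of all genes called higher, and its lack of overlap there was shared by 1.44% of all genes. At an unadjusted p under 0.05, 3 of the 7 ligases were higher in that comparison, beside 9.02% of all genes.

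In DM against NC alone, Fbxo32 had a log2 change of 0.51 ± 0.12 (SE; limma adjusted p = 0.128), a 1.42-fold ratio with a 95% interval of 1.19 to 1.70, and did not pass. Its groups did not overlap, which held in the same direction for 2.84% of all genes, and the exact two-sided permutation test gave p = 0.0286, the smallest that 4 arrays against 4 allow. Limma called 0 of the 7 ligases in DM against NC, where it called 0.022% of all genes and none of those higher. At an unadjusted p under 0.05, 1 of the 7 was higher and 0 were lower, beside 5.62% and 5.08% of all genes, and 5 of the 7 had a positive change, beside 49.6%.

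Atrial tissue differed between the arrays, so the Fbxo32 values were computed again for arrays alike in it. The alternative, chosen after seeing the data, left out the 5 arrays with a high signal of Myl7, the atrial myosin light chain gene, and kept 2 NC, 1 DM and 4 AngIV arrays. Fbxo32 then had 0.85 ± 0.13 (SE) in AngIV against NC (limma adjusted p = 0.0375). The change for both diabetic groups against NC was 0.62 ± 0.14 and was no longer called (limma adjusted p = 0.294), in a fit where 1 gene of 13653 was called. With the mean of the atrial markers as a covariate, Fbxo32 had 0.90 ± 0.13 and 0.69 ± 0.10 in these comparisons.

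**Figure D1:**
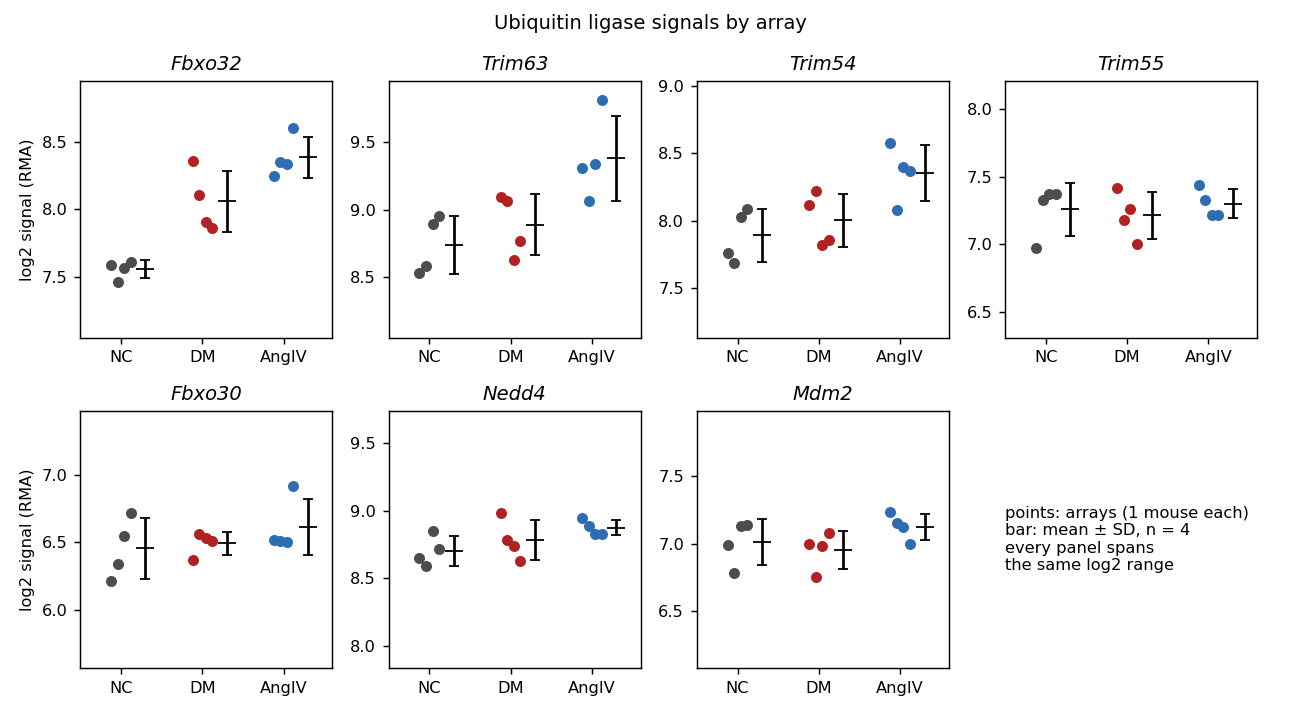
Log2 RMA signal of the 7 measured ligase genes on each array, by group (NC, DM, AngIV). Points are arrays, 1 mouse each, and bars are mean ± SD (n = 4). Fbxo32 lies between 7.46 and 7.61 on the NC arrays and at 7.86 or above on the 8 diabetic arrays, while Trim55, Nedd4 and Mdm2 overlap in all groups.

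Trim63 encodes MuRF1, a RING ligase of the sarcomere that ubiquitinates thick filament proteins and troponin I. Its log2 signal was 8.53, 8.58, 8.89 and 8.95 on NC replicates 1 to 4, 9.09, 9.06, 8.63 and 8.77 on the DM arrays and 9.31, 9.06, 9.34 and 9.81 on the AngIV arrays. The DM arrays overlapped those of NC, and all 4 AngIV arrays lay above the highest NC array. The change was 0.15 ± 0.16 (SE) in DM against NC, 0.49 ± 0.16 in AngIV against DM and 0.64 ± 0.16 in AngIV against NC, and limma gave adjusted p = 0.795, 0.46 and 0.0518 in that order. The last lay just outside the threshold. It fell inside without DM replicate 1 (limma adjusted p = 0.044), without AngIV replicate 2 (0.0444) and with arrays centred on their medians (0.0499). It was 0.127 without AngIV replicate 4, whose signal was the highest. Trim63 was called in 7 of 24 refits of this comparison, with changes of 0.50 to 0.75. Together with Fbxo32 it made 2 of 7 ligases whose AngIV arrays all lay above the NC arrays, beside 7.59% of all genes. In AngIV against NC as a whole, all 7 ligases had a positive change, beside 50.6% of all genes, and at an unadjusted limma p under 0.05 3 were higher and 0 lower, beside 10.9% and 7.74%. Their median change was 0.17, against 0.00 over all genes.

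Trim54 encodes MuRF3, a MuRF protein that also associates with microtubules. It read 7.76, 7.69, 8.03 and 8.09 on NC replicates 1 to 4, 8.12, 8.22, 7.82 and 7.86 on DM and 8.58, 8.08, 8.40 and 8.37 on AngIV. Its AngIV arrays overlapped NC through AngIV replicate 2, which was also the lowest AngIV array for Trim63. The log2 change was 0.11 ± 0.13 (SE) in DM against NC, 0.35 ± 0.13 in AngIV against DM and 0.47 ± 0.13 in AngIV against NC (limma adjusted p = 0.822, 0.505 and 0.079).

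Trim55, which encodes MuRF2, gave the flattest profile of the MuRF genes. It read 6.97, 7.33, 7.37 and 7.37 on NC replicates 1 to 4, 7.42, 7.18, 7.26 and 7.00 on DM and 7.44, 7.33, 7.22 and 7.22 on AngIV. All 3 groups overlapped, and the change was -0.04 ± 0.12 (SE) in DM against NC and 0.04 ± 0.12 in AngIV against NC. The 95% interval of the latter was -0.21 to 0.29. Without NC replicate 1, which was the low NC array, the AngIV against NC change was -0.05.

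The difference between a pair of log2 signals within each array is not changed by a shift of the whole array. The pairs here were chosen after the values were seen, so their differences are a description. Of 12 exact permutation tests on 4 such pairs, none passed after Benjamini-Hochberg adjustment (smallest adjusted p = 0.171). With 4 arrays against 4 the p of this test cannot fall below 0.0286. A few differences without overlap among 12 tests therefore could not pass, and the tests cannot decide whether a difference changed. Trim63 minus Trim55 was 1.25 to 1.58 on the NC arrays, 1.37 to 1.88 on DM and 1.73 to 2.59 on AngIV. Its mean was 0.60 higher in AngIV than in NC. Fbxo32 minus Fbxo30, both F-box genes, was 0.89 to 1.38 on NC, 1.35 to 1.99 on DM and 1.68 to 1.85 on AngIV, with a mean 0.67 higher in AngIV than in NC. Trim63 minus Trim54 was 0.77 to 0.90 on NC, 0.81 to 0.98 on DM and 0.73 to 1.44 on AngIV, and the groups overlapped. Trim54 minus Trim55 was 0.36 to 0.78, 0.56 to 1.04 and 0.75 to 1.18 in that order, and its groups overlapped too.

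Fbxo30 encodes MUSA1, the F-box ligase that skeletal muscle raises when BMP signalling is lost. Its signal ran from 6.21 to 6.72 in NC, 6.37 to 6.56 in DM and 6.50 to 6.92 in AngIV, and 3 of the 4 AngIV arrays lay between 6.50 and 6.52. The change in AngIV against NC was 0.16 ± 0.13 (SE; limma adjusted p = 0.553). All 3 groups overlapped.

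Nedd4 encodes a HECT ligase that acts on membrane receptors and channels, and Mdm2 the RING ligase that restrains p53. Nedd4 ran from 8.59 to 8.85 in NC, 8.63 to 8.98 in DM and 8.83 to 8.95 in AngIV, and the groups overlapped, with all 4 AngIV arrays below the highest DM array. Its change in AngIV against NC was 0.17 ± 0.10 (SE), with a 95% interval of -0.04 to 0.38. Mdm2 ran from 6.78 to 7.14, 6.75 to 7.08 and 7.00 to 7.23, and its change was 0.11 ± 0.11 with an interval of -0.12 to 0.35. Of 20 tested p53 target genes limma called 0 in each comparison, with 5 higher and 1 lower in AngIV against NC at an unadjusted p under 0.05, beside 10.9% and 7.74% of all genes. Cdkn1a, the cell cycle inhibitor among them, had mean signals of 5.68 ± 0.39 (NC), 5.87 ± 0.62 (DM) and 5.75 ± 0.58 (AngIV; SD, n = 4).

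AngIV against DM compared infused with untreated diabetic mice, and atrial content also differed between them. The log2 signal of Myl7 was 3.97 on DM replicate 3, 8.10 to 9.68 on the other DM arrays and 3.53 to 3.94 on AngIV. The part of the infusion and of atrial content in the changes was not tested. In this comparison all 7 ligases had a positive change, where 52.9% of all genes did. Limma called 0 of 13653 genes, and at an unadjusted p under 0.05 it put 3 of the 7 ligases higher, Trim63, Fbxo32 and Trim54, and 0 lower, beside 5.27% of all genes higher and 3.51% lower. Fbxo32 had 0.32 ± 0.12 (SE; limma adjusted p = 0.499). The groups overlapped for all 7, while 3.57% of all genes were higher without overlap, and none reached p = 0.0286 by the exact permutation test. The median change of the 7 was 0.17, against 0.01 over all genes. DM is shared with the DM against NC comparison, so the values of both are given side by side. The mean was higher at each step, from NC to DM and from DM to AngIV, for Fbxo32, Trim63, Fbxo30, Trim54 and Nedd4, 5 of the 7, as it did for 23.2% of all genes.

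**Figure D2:**
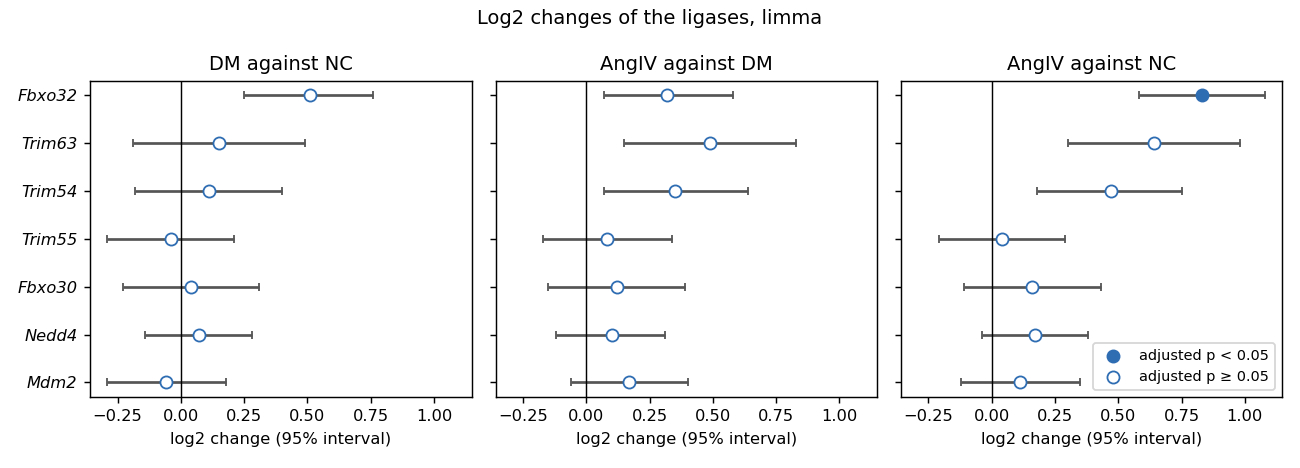
Log2 change of each ligase gene in the 3 comparisons of groups, with its 95% interval from limma (n = 4 per group). Filled points passed an adjusted p under 0.05 over 13653 genes and open points did not. Fbxo32 in AngIV against NC, at 0.83, is the filled point, and Trim55 lies between -0.04 and 0.08 in all 3.

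Some ligases varied together from array to array. Of 21 pairs, 6 had a Pearson r over the 12 arrays that passed a permutation test with Benjamini-Hochberg adjustment. Trim63 and Trim54 had r = 0.88 and Spearman rho = 0.93 (permutation adjusted p = 0.00189 and 0.00105), and r = 0.96 without the 2 arrays farthest from the Trim63 median. Fbxo32 and Trim63 had r = 0.83 and rho = 0.85 (permutation adjusted p = 0.00588 and 0.0104), and r = 0.73 without the 2 farthest. Differences between the groups enter these values. On values centred within each group, r was 0.71 for Trim63 with Trim54 (permutation within groups, p = 0.0282) and 0.73 for Fbxo32 with Trim63 (p = 0.0185), and 0 of 21 pairs passed after adjustment (adjusted p = 0.24 for both).

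The remaining 4 pairs that passed were weaker. Fbxo32 with Trim54 had r = 0.73 and rho = 0.71, Trim54 with Nedd4 r = 0.74 and rho = 0.67, Fbxo32 with Nedd4 r = 0.70 and rho = 0.66, and Trim63 with Fbxo30 r = 0.71 and rho = 0.36. For r their permutation adjusted p-values ran from 0.0426 to 0.0453, and for rho from 0.0636 to 0.399. Trim63 with Fbxo30 rested on the farthest arrays, with r = 0.16 without them. The other MuRF pairs did not pass: Trim63 with Trim55 had r = 0.29 and rho = 0.29 (permutation adjusted p = 0.514 and 0.548), and Trim54 with Trim55 r = 0.38 and rho = 0.27 (permutation adjusted p = 0.353 and 0.548).

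**Figure D3:**
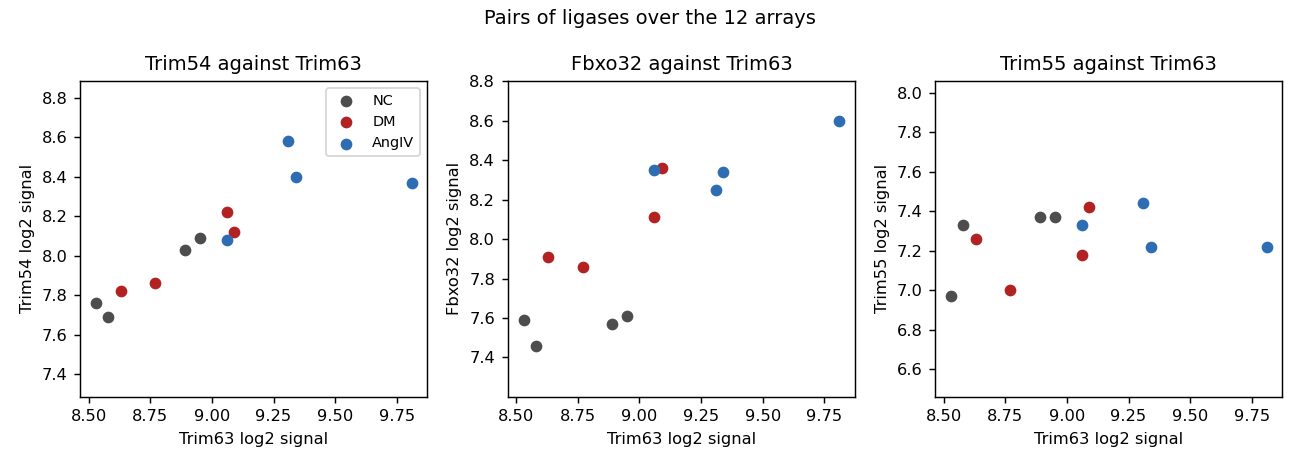
Log2 signals of Trim54, Fbxo32 and Trim55 (vertical axes) against that of Trim63 (horizontal axis), 1 point per array and coloured by group (n = 4 each). Trim54 follows Trim63 across the 12 arrays (r = 0.88), Fbxo32 does so with NC arrays set low (r = 0.83), and Trim55 does not (r = 0.29).

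The genes whose profile over the 12 arrays was most like that of each ligase were found among 6344 genes brighter than the negative controls, by Pearson r, as a description. For Fbxo32 they were Adcy6 (r = 0.975), an adenylyl cyclase of the heart, Sesn1 (0.973), a brake on mTORC1, Cnksr3 (0.967), Zbtb16 (0.967), a transcription factor induced by glucocorticoids, and Fig4 (0.959). For Trim63 they were Tmcc1, Inpp5k, Nom1, Ivns1abp and Pacs2, at 0.957 to 0.922. Trim54 was followed most closely by the proteasome subunit gene Psmd4 (0.942), Plin3, Dcaf8, Cpeb4 and the calcineurin subunit gene Ppp3ca (0.932). Nedd4 had Mgll (0.962), Ogt, Dnm2, Enox2 and Ap2m1 (0.934), and Trim55 had Kyat1 (0.917), Rbms2, Ctnna1, Mapk14 and Tnni3k (0.868). The nearest to Fbxo30 were Iars (0.901), Ank3, Kars, Pdcd2 and Gabarapl2, and to Mdm2 Gpt (0.864), Slc25a17, Sbf1, Rnpepl1 and Eif3i. None of these lists of 5 held another ligase of the 7.

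Other genes of the wasting program stand beside the ligases. Of 28 genes of the atrophy and FoxO program, the ligases not counted, limma called 8 higher and 0 lower in AngIV against NC. It called 1.52% of all genes higher there. The list had a median log2 change of 0.47, against 0.00 over all genes. It was chosen with earlier results of these data known, so these counts are a description. The list also holds Zbtb16 and Fkbp5, both induced by glucocorticoids, and the metallothionein genes Mt1 and Mt2, and these were among the 8. Fkbp5 had the largest change of the list, 2.55 (limma adjusted p = 0.0157). Map1lc3b, Bnip3, Gabarapl1 and Ctsl of the same list were not called (limma adjusted p = 0.0728, 0.0761, 0.109 and 0.416). Zbtb16 rose from 6.96 ± 0.34 to 9.13 ± 0.19, Sesn1 from 8.34 ± 0.13 to 9.49 ± 0.24, Pik3ip1, a brake on PI3 kinase, from 7.52 ± 0.39 to 8.79 ± 0.31 and Cited2 from 7.52 ± 0.21 to 8.73 ± 0.38 (mean ± SD, n = 4; limma adjusted p = 0.00282 to 0.00926). In DM against NC 0 of the 28 were called. An unadjusted limma p under 0.05 was reached there by 13 with a positive and 2 with a negative change, and the median was 0.27. Over all genes those shares were 5.62% and 5.08% in DM against NC, 5.27% and 3.51% in AngIV against DM, and 10.9% and 7.74% in AngIV against NC. Other settings called up to 4 of the 28 in DM against NC. Zbtb16, with a change of 1.57 there (limma adjusted p = 0.0681), was called without DM replicate 3 (0.0482) or DM replicate 4 (0.0216). In AngIV against DM 0 were called, with 5 positive and 0 negative at that level. Cited2 was not called without the arrays high in Myl7 (0.0748).

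Of 35 tested regulators upstream of the ligases, limma called 2 higher and 0 lower in AngIV against NC, where 1.52% of all genes were called higher. It called 0 of the 35 in DM against NC or AngIV against DM. At an unadjusted p under 0.05, 11 were higher and 1 lower in AngIV against NC, beside 10.9% and 7.74% of all genes. In DM against NC 10 were higher and 0 lower, beside 5.62% and 5.08%. In AngIV against DM 2 were higher and 2 lower, beside 5.27% and 3.51%. The 2 called in AngIV against NC were Foxo3 and Klf15, a glucocorticoid-induced factor. Foxo3 had means of 5.69 ± 0.11 (NC), 5.95 ± 0.05 (DM) and 6.24 ± 0.18 (AngIV; SD, n = 4; limma adjusted p = 0.0154). Klf15 stood at 5.79 ± 0.17, 6.18 ± 0.20 and 6.46 ± 0.34 (limma adjusted p = 0.0412). The NC means of Foxo3 and Klf15 lay not far above the negative control level in NC, 5.48. Foxo1, named in the series title, stood at 5.58 ± 0.15, 5.72 ± 0.22 and 5.60 ± 0.24, close to the negative control level of 5.48 to 5.53, with a change of 0.02 ± 0.14 (SE) in AngIV against NC. Foxo4 had -0.03 ± 0.14 there and lay below that level in each group. Nr3c1, the glucocorticoid receptor gene, had -0.09 ± 0.09. Foxo3 was not called without AngIV replicate 3 (limma adjusted p = 0.0546) or 4 (0.0522), and without the arrays high in Myl7 the adjusted p was 0.142 for Foxo3 and 0.161 for Klf15. Klf15 was not called without any 1 of the NC arrays or of AngIV replicates 2, 3 and 4 (0.061 to 0.114), nor with the replicate number as a block (0.0804) or no filter on dim genes (0.0621).

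Among 32 genes listed as other ubiquitin ligases of muscle and heart, limma called 1 higher and 1 lower in AngIV against NC. It called 2.15% of all genes there, in either direction. At an unadjusted p under 0.05, 6 of the 32 were higher and 3 lower, beside 10.9% and 7.74% of all genes, and the median change was 0.10. The list also holds Ankrd1, which is not a ligase gene. Fbxo31, another F-box gene, rose from 7.11 ± 0.06 in NC to 7.61 ± 0.17 in AngIV (limma adjusted p = 0.02). Fbxw7, whose product marks cyclin E and MYC for breakdown, fell from 6.25 ± 0.15 to 5.73 ± 0.11 (mean ± SD, n = 4; limma adjusted p = 0.0205). Their DM means lay between, at 7.49 ± 0.05 and 5.83 ± 0.14. Neither was called without NC replicate 2 (limma adjusted p = 0.0588 and 0.0571) or without AngIV replicate 3 or 4 (0.0569 to 0.0689), Fbxw7 not without NC replicate 3 (0.0539), and neither without the arrays high in Myl7 (0.14 and 0.0911). Limma called 0 of the 32 in DM against NC, where an unadjusted p under 0.05 was reached by 4 in each direction, beside 5.62% of all genes higher and 5.08% lower. Ubiquitin itself and its E1 and E2 enzymes, which charge and carry it, had 0 of 21 called in all 3 comparisons, with at most 2 higher and 1 lower at that level, and a median change of 0.02 in AngIV against NC.

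The proteins on which the ligases act were covered by a pair of lists. Of 20 genes for sarcomere and metabolic proteins bound or ubiquitinated by MuRF ligases, 1 rose in AngIV against NC: Tcap, the titin cap at the Z-disc, from 8.98 ± 0.33 to 9.76 ± 0.22 (mean ± SD, n = 4; limma adjusted p = 0.0164, 0.0515 without NC replicate 2 and 0.112 without the arrays high in Myl7). Myh7, the slow myosin heavy chain gene of the same list, stood at 10.06 ± 0.24, 10.62 ± 0.74 and 11.20 ± 0.36 and did not pass (limma adjusted p = 0.0518). The median of the list was 0.06, and limma called 1.52% of all genes higher in this comparison. At an unadjusted limma p under 0.05, 6 of the 20 were higher and 0 lower, beside 10.9% and 7.74% of all genes. In DM against NC 1 was higher and 0 lower, beside 5.62% and 5.08%. In AngIV against DM 2 were higher and 0 lower, beside 5.27% and 3.51%. Of 22 targets and partners of atrogin-1, CHIP and MDM2, a list that also holds Foxo3, limma called 2 higher and 1 lower. It called 2.15% of all genes in either direction. At an unadjusted limma p under 0.05, 8 of the 22 were higher and 2 lower in AngIV against NC. That level was reached by 3 higher and 3 lower in DM against NC, and by 4 higher and 1 lower in AngIV against DM. The shares of all genes are those given for the list before. The deubiquitinase gene Usp2, whose product acts on MDM2, rose from 7.63 ± 0.35 to 8.30 ± 0.17 (limma adjusted p = 0.0348), and Dusp1, a phosphatase gene whose product is a target of atrogin-1, fell from 8.26 ± 0.03 to 7.54 ± 0.26 (limma adjusted p = 0.0165). Usp2 was not called without NC replicate 1 or 2 or AngIV replicate 2, 3 or 4 (limma adjusted p = 0.0788 to 0.0984), nor with the atrial covariate (0.0633) or no filter on dim genes (0.0512). Dusp1 was not called without NC replicate 2 (0.0515) or AngIV replicate 3 or 4 (0.0553 and 0.0586). Without the arrays high in Myl7 the adjusted p was 0.114 for Usp2 and 0.102 for Dusp1.

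**Figure D4:**
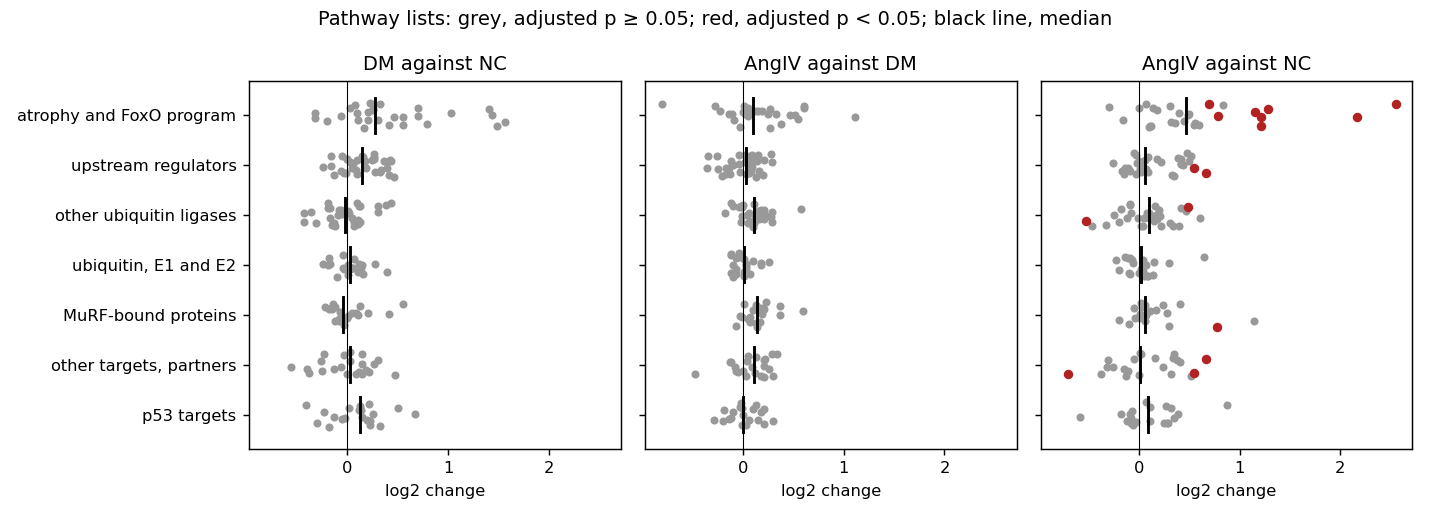
Log2 change of every tested gene of 7 pathway lists in the 3 comparisons of groups, 1 point per gene, with the median of each list as a black line. Red points passed a limma adjusted p under 0.05 over 13653 genes and grey points did not. Red points appear in AngIV against NC alone, 8 of them in the atrophy and FoxO program, where 2.15% of all genes were called.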

How the data were processed

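The authors deposited 1 table of log2 signals for 29129 probe sets, made with RMA (background correction, quantile normalization, probe set summary) per the submitters' processing notes. For the RMA version, chip description file and genome build the sources used here give nothing. Quantile normalization hides a change in total mRNA, and RMA compresses large differences. Control probe sets (6923) were left out. Of 22206 transcript probe sets, 19572 had 1 gene symbol, 2634 none and 0 several. The probe set of highest mean was kept per gene, and the dimmest 30% of genes (mean under 3.40) were left out. On each array the 95th percentile of the negative controls, 5.39 to 5.60, served as the background level. The number of arrays limits precision, with a median SE of 0.127 for pairs of groups.

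Group means over all 12 arrays were fitted with limma 3.58.1 in R 4.3.3 and adjusted by Benjamini-Hochberg over 13653 genes, with calls at an adjusted p under 0.05. The code was tested on simulated data. A change is a difference of mean log2 signals with its SE, and a ratio is 2 to that power. Titles number the arrays 1 to 4 in each group. Same-numbered arrays deviated together with r of -0.12 to 0.21, so the numbers were not used as pairs. Correlations used 100000 permutations. Genes named besides the 7 ligases were up to 4 per list and comparison with the smallest unadjusted p under 0.05, a few fixed regulators and the 5 nearest profiles, of which those called are described. Fkbp5, Map1lc3b, Bnip3, Gabarapl1 and Ctsl were named outside this rule. The ligases and lists were chosen with earlier results of these data known. Alternatives changed the filter, prior, weights, samples, block and atrial covariate.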

Additional observations from a re-analysis of the deposited data

Results flagged for a closer look

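Among 21 sets of 4 arrays (7 ligases in 3 groups), 2 held an array whose gap to its nearest neighbour was large for the range of the set, by Dixon's criterion, which flags about 1 set in 20 by chance. Fbxo30 read 6.92 on AngIV replicate 4, where the other 3 AngIV arrays lay between 6.50 and 6.52. That array was also the highest in AngIV for Fbxo32, at 8.60, and for Trim63, at 9.81. Trim55 read 6.97 on NC replicate 1, against 7.33 to 7.37 on the other NC arrays.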

How the results depend on the processing

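Fbxo32 in AngIV against NC kept its direction and its call in all 24 refits, with changes of 0.76 to 0.90 and limma adjusted p-values of 0.000712 to 0.0375. For both diabetic groups against NC it was called in 23 of 24, and 0 ligases were called without the arrays high in Myl7. In DM against NC and AngIV against DM 0 ligases were called in any refit. The number called in AngIV against NC was 1 to 2 over the arrays left out singly, 2 with the dimmest 50% left out, the robust prior or arrays centred on their medians, and 3 with a trend in the prior or only genes above the negative controls, where Trim63 and Trim54 joined Fbxo32. With the replicate number as a block 1 ligase was called in AngIV against NC, with Fbxo32 at 0.83 (limma adjusted p = 0.018), and the block changed no call of a ligase. Over all genes, 3 were called in DM against NC, 29 with the trend and 30 when DM replicate 4 was left out. In AngIV against NC 293 were called, and 104 to 469 over the arrays left out singly, 576 with the trend and 218 with the block. The 8 genes called in the atrophy and FoxO program became 4 to 11, and the 0 called in DM against NC became up to 4.

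Changes near 0 turned sign. Without the arrays high in Myl7, DM against NC gave -0.13 for Trim63, -0.07 for Trim54, 0.02 for Mdm2, 0.07 for Dusp1, -0.09 for Foxo1 and 0.04 for Nr3c1, AngIV against DM 0.11 for Foxo1 and 0.28 for Cdkn1a, and AngIV against NC -0.05 for Trim55 and 0.14 for Foxo4. With the atrial covariate, Trim55 had -0.00 in AngIV against DM and -0.03 in AngIV against NC, Cdkn1a 0.24 in AngIV against DM and Foxo4 0.07 in AngIV against NC. Array weights gave Mdm2 -0.01 for both diabetic groups against NC. With single arrays left out, DM against NC ran from -0.05 to 0.12 for Fbxo30, -0.14 to 0.03 for Trim55, up to 0.01 for Mdm2 and -0.10 to 0.36 for Cdkn1a. AngIV against DM then reached 0.01 for Nr3c1 and ran from -0.35 to 0.17 for Cdkn1a. AngIV against NC ran from -0.05 to 0.08 for Trim55, from -0.04 for Foxo1, -0.14 to 0.07 for Foxo4 and -0.16 to 0.31 for Cdkn1a. Both diabetic groups against NC ran from -0.10 to 0.04 for Trim55 and from -0.05 for Mdm2. Causes were not tested. Of the 6 correlated pairs, 0 passed when centred in each group and 1 without the 2 farthest arrays.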
